A study of Mus musculus with 34 samples.

Results

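The comparison described here was the effect of knocking out Degs1 minus the effect of the hairpin labelled shYAP, computed for every gene in 1 fit of all 34 RNA-seq libraries of the series. Its members were the libraries, chosen by the group named in their titles: 21 entered the knockout effect and 13 the hairpin effect, and the 2 effects shared no library. All libraries came from mouse colon tumour organoids, which are 3-dimensional epithelial cultures, with the genotype given as AKP in every group. The knockout side comprised a Scrambled control (3 libraries) and the lines Degs1-KO clone1 and Degs1-KO clone2 (9 libraries each), made with a CRISPR ribonucleoprotein. The hairpin side comprised shControl (10 libraries) and shYAP (3 libraries), a short hairpin against Yap1 that none of the knockout groups carried. No group carried both perturbations. Nothing in the labels ties a replicate to a culture of its own, and each clone is 1 line. Here n therefore counts libraries, and p-values measure only how far these libraries differ among themselves, part of which may be technical.

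The enzyme made from Degs1 inserts the double bond that makes ceramide out of dihydroceramide, which completes its synthesis from serine and palmitate. Ceramides are the core of sphingomyelins and glycosphingolipids, and their amount in membranes bears on stress signalling in the endoplasmic reticulum. Yap1 encodes the coactivator that, bound to TEAD factors, carries the output of the Hippo pathway, and in the injured gut epithelium it is known for driving a regenerative state marked by Clu, in which Lgr5-positive crypt-base stem cells are lost. Both perturbations were thus made in a tissue where the named pathways are known to bear on the balance between homeostatic and revival stem cells.

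Library totals ran from 883253 counts (clone1 replicate 2) to 6597099 counts. All 14 epithelial identity genes were tested, and they summed to between 2073 and 4090 CPM (counts scaled to a common effective library total) in every library. Of these 14, 5 were lower and 0 higher in the libraries labelled shYAP, Epcam (-0.62 ± 0.14) and Elf3 (-0.73 ± 0.16) among them. In the knockout 4 were lower and 2 higher (1 or 2 lower and 0 or 1 higher without any 1 Scrambled library), but the clones went apart, with 4 higher and 0 lower in clone1 and 1 higher and 8 lower in clone2. The intestinal transcription factor Cdx2 fell in clone2 (-1.73), with a clone1 value of -0.21. The part of these shifts in the results below was not tested. Markers of fibroblasts and smooth muscle summed to at most 1.18 CPM, with Col1a2, Col3a1, Pdgfrb and Postn at 0 everywhere, and endothelial markers to at most 6.49 CPM, with Cdh5, Kdr and Cldn5 at 0. Of 12 immune markers, Cd3e, Cd4, Cd8a and Ms4a1 were among those at 0 in every library, and 2 were tested, Cd68 and Ly6g. Ly6g, a neutrophil marker of the Ly6 family that includes Ly6a and Ly6c1, rose in both effects (0.86 ± 0.26 and 1.01 ± 0.24), and Cd68 fell in the libraries labelled shYAP (-0.99 ± 0.22). The sum of the immune markers, nearly all of it Ly6g, ran from 365 to 992 CPM in shControl, 1175 to 1434 in the libraries labelled shYAP, 936 to 1282 in Scrambled, and 1280 to 2693 over both clones. In these bulk samples fewer cells of a type and less RNA per cell cannot be told apart.

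The targeted genes were read first. Degs1 (ENSMUSG00000038633, chr1:182275772-182282804, minus strand, mm10) stood at 8.1, 4.95 and 10.2 CPM in the Scrambled libraries, at 0.815 to 4.59 (median 3.04) in clone1 and at 0.219 to 2.87 (median 1.89) in clone2. Every knockout library lay below every Scrambled library. On the hairpin side Degs1 stood at 2.63 to 7.93 (median 5) CPM in shControl and at 10.1, 18.25 and 15.9 in the libraries labelled shYAP, all above the highest shControl library. Degs1 thus fell in the knockout, with a log2 fold change and standard error of -1.85 ± 0.34 (edgeR adjusted p = 1.01e-04), and rose in the libraries labelled shYAP by 1.47 ± 0.35 (edgeR adjusted p = 0.00213). The difference between the effects was -3.33 ± 0.49 (edgeR adjusted p = 2.32e-06). Its rise did not pass with shControl replicates 8 to 10 as the control, nor in limma with sets of libraries as a random block. Yap1 (ENSMUSG00000053110, chr9:7931999-8004596, minus strand) stood at 9.51 to 22.1 (median 16.3) CPM in shControl, with 20.1, 19.2 and 17.9 for the libraries labelled shYAP and 18.3, 12.2 and 14 for Scrambled. The hairpin libraries lay inside the control range, with a value of 0.20 ± 0.22 (edgeR adjusted p = 0.576) that had 95% confidence bounds of -0.24 and 0.64. As the transcript did not follow the label, hairpin values below are given for the libraries labelled shYAP, without a fall in Yap1 mRNA behind them.

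Of 11960 genes tested, the effects differed for 2253 (18.8%, edgeR adjusted p under 0.05), with the knockout effect above the hairpin effect for 1177 (9.84%) and below it for 1076 (9%). The difference reached at least 1 on the log2 scale for 1387 of them. Apart, the knockout effect had 1678 genes past the threshold (14%) and the hairpin effect 2065 (17.3%). The 2 effects had 480 genes in common (4.01% of genes tested), 28.6% of the knockout genes and 23.2% of the hairpin genes, against a background of 17.3% and 14%. Of these, 209 moved the same way (1.75%), 87 higher (0.727%) and 122 lower (1.02%) in both. The other 271 moved opposite ways (2.27%), 136 higher in the knockout and lower in the libraries labelled shYAP (1.14%), and 135 the reverse (1.13%). All 271 genes that moved opposite ways also passed the test of the difference. This was nearly fixed by their definition, as a difference between effects of opposite sign adds their sizes. Of the 209 that moved the same way, 13 passed it. Of the remaining genes whose effects differed, 643 passed in the knockout effect alone, 914 in the hairpin effect alone and 412 in neither. Across all genes, which are not independent replicates, the 2 effects had a Pearson r of -0.0899 and a Spearman rho of -0.116.

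**Figure D1:**
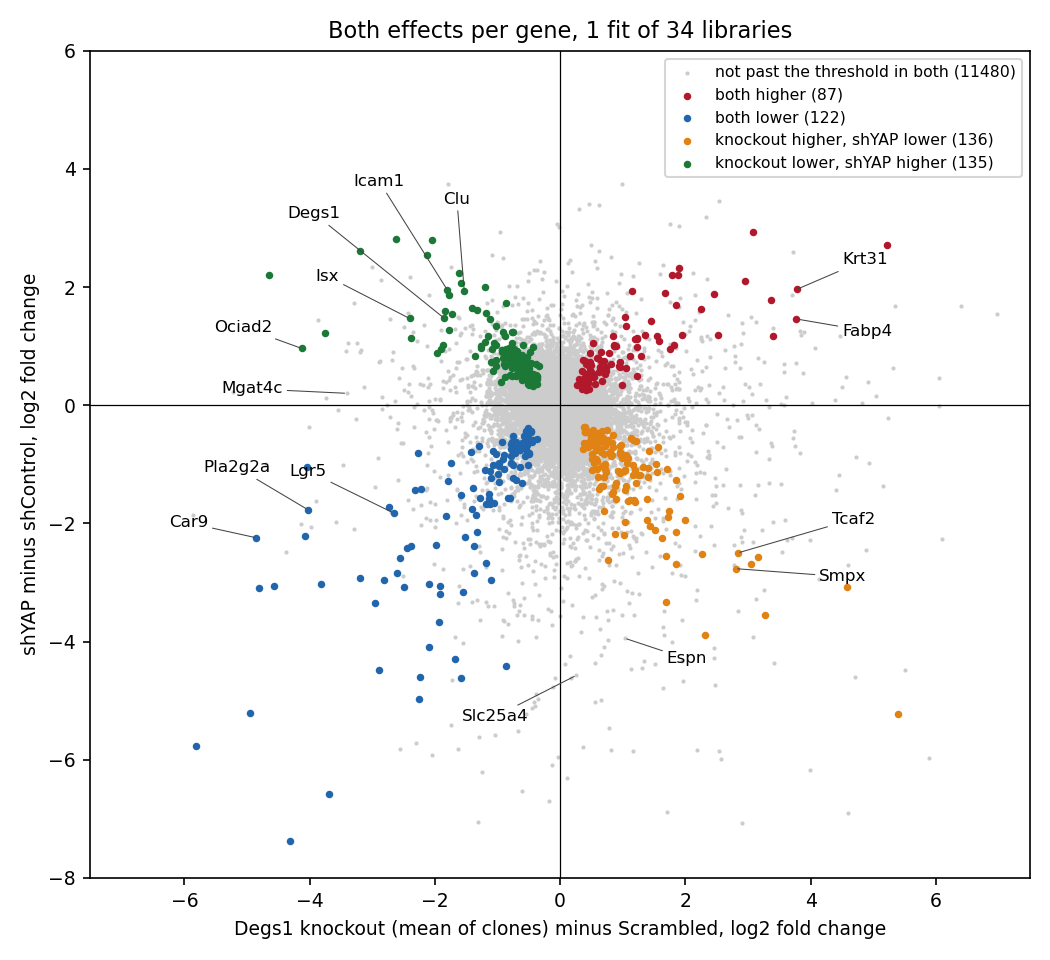
Log2 fold change of each tested gene in the Degs1 knockout (x axis, mean of both clones minus Scrambled) against that in the libraries labelled shYAP (y axis, minus shControl); 6 genes lie outside the axes. Coloured points passed the threshold in both effects: 87 in the upper right and 122 in the lower left moved the same way, 136 in the lower right and 135 in the upper left moved opposite ways.

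Which of the 2 patterns was more frequent depended on the control libraries. In the library names, shControl replicates 1 to 4 carry numbers apart from the rest, while those of replicates 5 to 10 run on into the numbers of all other groups. With replicates 5 to 10 alone, a choice made after seeing the data, 243 genes moved the same way and 271 opposite ways. A finer division of shControl into replicates 1 to 4, 5 to 7 and 8 to 10, and of each clone into replicates 1 to 6 and 7 to 9, was taken over from earlier results of these data and, beyond the gap after replicate 4, has no label behind it. With replicates 8 to 10 as the only shControl libraries, 286 genes moved the same way and 153 opposite ways, while replicates 1 to 4 gave 484 opposite and replicates 5 to 7 gave 461. With these sets as random blocks in limma the counts were 52 and 52. The controls themselves differed at 353 genes (2.95%) between Scrambled and shControl, 1.76% higher and 1.19% lower in Scrambled, and 226 of the 2253 genes whose effects differed were among them. That share was 23.7% for genes lower in the knockout and higher in the libraries labelled shYAP, where 32 of 135 were higher in Scrambled and 0 lower. It was 21.3% in the reverse group, with 28 of 136 lower in Scrambled and 1 higher, and 10.3% and 13.9% for genes higher or lower in both. Each effect was measured within its own control, and for these genes a gap between the controls moved with it, whose part in the result was not tested. Both clones had the same sign for 127 of 135, 130 of 136, 85 of 87 and 113 of 122 genes of these groups in the same order, and each clone passed apart for 50, 38, 31 and 53. Against Scrambled, clone1 alone had 9.78% of genes past the threshold (4.17% higher, 5.61% lower) and clone2 alone 28.6% (14.7% higher, 13.9% lower). The clones differed from each other at 44.6% of genes. Of 154 genes named by rule, 98 passed in the knockout effect, 53 of them also in clone1 alone, 93 in clone2 alone and 48 in each. A knockout value below is the mean of both lines, and for many genes mainly that of clone2.

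Genes that fell in the knockout and rose in the libraries labelled shYAP included Clu and Icam1. Clu (ENSMUSG00000022037, chr14:65968483-65981547, plus strand), the secreted chaperone clusterin that marks revival stem cells, stood at 9.95, 8.04 and 11 CPM in Scrambled, 2.21 to 5.34 (median 3.32) in clone1 and 0.818 to 7.06 (median 2.75) in clone2. Its level was 3.9 to 16.9 (median 11.2) CPM in shControl, against 43.6, 44.5 and 38.4 for the libraries labelled shYAP. Knockout libraries were all below Scrambled, hairpin libraries all above shControl, and the 2 controls overlapped. Clu fell in the knockout (-1.53 ± 0.31, edgeR adjusted p = 4.39e-04) and rose in the hairpin libraries (1.93 ± 0.29, edgeR adjusted p = 5.06e-06), and the effects differed by -3.46 ± 0.42 (edgeR adjusted p = 7.39e-08). Its knockout call was lost with the library sets as a random block. Icam1 (ENSMUSG00000037405, chr9:21015985-21028817, plus strand), the adhesion molecule that leukocytes bind, had the same layout. It stood at 18.5, 28 and 10.6 CPM in Scrambled and at 1.12 to 7.75 and 3.11 to 9.54 in clone1 and clone2, against 2.98 to 22.2 (median 8.83) in shControl and 34, 46.7 and 30.5 in the libraries labelled shYAP. Its effects were -1.80 ± 0.36 and 1.95 ± 0.37, a difference of -3.75 ± 0.51 (edgeR adjusted p = 3.08e-06), and its knockout call too was lost with the library sets as a random block. Of the 14 NF-kappaB and chemokine genes that Icam1 was listed with, 2 were lower and 0 higher in the knockout (background 7.55% and 6.48%), 2 were higher and 0 lower in the libraries labelled shYAP (background 8.39% and 8.87%), and Icam1 was the 1 that moved opposite ways.

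Isx, an intestine-specific homeobox factor that represses vitamin A metabolism, stood at 24.8, 25.1 and 24.8 CPM in Scrambled and fell to 1.65 to 4.62 in clone1 and 4.13 to 9.73 in clone2. It rose from 3.04 to 9.3 (median 6.54) CPM in shControl to 16.1, 16.4 and 20.5 in the libraries labelled shYAP. Clone2 stood at shControl's level and clone1 at its lower end or below it, and Scrambled was above shControl by 1.96 ± 0.24 (adjusted p = 1.85e-06). Both effects (-2.40 ± 0.22 and 1.47 ± 0.25) and their difference (-3.87 ± 0.33, edgeR adjusted p = 4.95e-12) passed, and each effect did so in all 21 alternatives. Ociad2, a mitochondrial and endosomal protein gene, had a difference of -5.09 ± 0.45 (edgeR adjusted p = 4.92e-10). It fell from 18.7, 29.2 and 27.4 CPM in Scrambled to 0.935 to 4.43 and 0.755 to 1.84 in the clones, while its hairpin value of 0.96 ± 0.32 came from libraries at 80.5, 60.2 and 50.8 CPM that overlapped shControl (14.1 to 63.2) and did not pass when any 1 of the 3 shYAP libraries was left out. Car13, a cytosolic carbonic anhydrase gene, had effects of -1.84 ± 0.23 and 1.60 ± 0.24, and most of its fall lay in clone2 (-2.99) rather than clone1 (-0.68). Hoxb7, a homeobox gene, fell in clone1 (-4.83, to 0.17 to 1.24 CPM) and not in clone2 (0.06, at 14.4 to 28.3). Yaf2, a Polycomb-associated gene, ranged from 11.8 to 80.3 CPM within Scrambled alone, and its effects of -1.33 ± 0.45 and 1.61 ± 0.48 both came from overlapping groups, the fall being that of clone1 (-1.95, against -0.71 in clone2).

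Genes that rose in the knockout and fell in the libraries labelled shYAP were led by Smpx, Tcaf2, Alms1, Fstl3, Btbd8 and Dlx3. Tcaf2 (ENSMUSG00000029851, chr6:42623016-42645254, minus strand), a regulator of TRPM8 ion channels, stood at 1.39, 1.86 and 1.22 CPM in Scrambled, 2.68 to 18.8 (median 9.28) in clone1 and 9.24 to 22.7 (median 15.3) in clone2. It stood at 2.1 to 15.3 (median 7.7) CPM in shControl and at 0.719, 1.18 and 1.99 in the libraries labelled shYAP. Neither perturbed group overlapped its own control, yet Scrambled stood as low as the hairpin libraries (-2.30 ± 0.60 against shControl, adjusted p = 0.0272). Its effects were 2.84 ± 0.59 and -2.50 ± 0.64, with a difference of 5.34 ± 0.87 (edgeR adjusted p = 3.99e-05). Btbd8, an endocytic adaptor gene, stood at 2.16, 4.74 and 5.08 CPM in the libraries labelled shYAP, all below shControl at 10.9 to 32.5, and had effects of 1.63 ± 0.37 and -2.25 ± 0.41 that passed in all 21 alternatives. Scrambled was lower than shControl for Btbd8 as well (-1.68 ± 0.38). Smpx, a striated-muscle cytoskeleton gene, had a difference of 5.57 ± 1.19 (edgeR adjusted p = 0.00133), with 6.71, 8.97 and 6.91 CPM in Scrambled. It stood at 14.9 to 90.9 CPM in shControl and at 6.47, 5.92 and 5.74 in the libraries labelled shYAP. Here too, every Scrambled library lay below every shControl library, near the hairpin libraries. Its clone values spread widely, from 5.96 to 41 CPM in clone1 and from 38.2 to 266 in clone2. Clone1 replicates 7 to 9 (5.96, 5.97 and 8.49 CPM) lay at Scrambled's level. Alms1, the centrosomal gene of Alström syndrome, and Fstl3, an activin-binding follistatin relative, had differences of 4.78 ± 1.10 and 4.53 ± 0.91, with rises in clone2 (3.79 and 2.97) and smaller values in clone1 (0.73 and 0.72). Dlx3, a homeobox factor of keratinocytes, had effects of 1.92 ± 0.39 and -1.54 ± 0.41. The hairpin calls of Smpx, Tcaf2, Alms1, Fstl3, Dlx3, Yaf2 and Hoxb7 were lost with shControl replicates 8 to 10 as the control. The hairpin calls of Smpx and Alms1 were also lost without any 1 shYAP library, that of Tcaf2 without shYAP replicate 1, that of Fstl3 without replicate 1 or 3, that of Dlx3 without replicate 2 or 3 and that of Yaf2 without replicate 1 or 2. The knockout calls of Smpx, Alms1 and Fstl3 were lost without any 1 Scrambled library, and that of Yaf2 without Scrambled replicate 1 or 2, among other settings. Over the 21 alternatives, Yaf2 passed in 8 for the knockout effect and 13 for the hairpin effect. The hairpin effect of Alms1 passed in 11.

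Other large differences came from genes that passed in 1 effect. Slc25a4 (ENSMUSG00000031633, chr8:46206797-46211284, minus strand), the ADP/ATP carrier of the inner mitochondrial membrane, stood at 2.64, 4.03 and 2.65 CPM in the libraries labelled shYAP against 46.8 to 107 (median 74.5) in shControl, a log2 fold change of -4.57 ± 0.29 (edgeR adjusted p = 2.43e-16). Scrambled (57.4, 57.1 and 46.9 CPM), clone1 (27.8 to 46.9) and clone2 (80.8 to 139) all stood above the hairpin libraries, and the knockout value was 0.26 ± 0.18 (edgeR adjusted p = 0.395). The clones lay on opposite sides of Scrambled, at -0.55 and 1.07. Espn, an actin-bundling gene of microvilli, stood at 0.959, 0.474 and 1.55 CPM in the libraries labelled shYAP and at 5.12 to 25.3 in shControl, and its effects were 1.04 ± 0.42 (adjusted p = 0.102) and -3.95 ± 0.65 (adjusted p = 6.49e-05). Mgat4c, a glycosyltransferase gene, went the other way. It fell from 49.98, 63.6 and 48.8 CPM in Scrambled to 4.97 to 12.2 and 0.384 to 6.96 in the clones (-3.41 ± 0.30), while the hairpin value was 0.20 ± 0.37 (adjusted p = 0.765).

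Among genes lower in both, Car9, Pla2g2a, Lgr5 and Adh1 passed in both effects in all 21 alternatives. Car9 (ENSMUSG00000028463, chr4:43506966-43513729, plus strand), the membrane carbonic anhydrase induced by hypoxia, stood at 122, 122 and 129 CPM in Scrambled, 8.24 to 19.6 in clone1 and 0.441 to 3.15 in clone2. It stood at 27 to 97 (median 65.8) CPM in shControl, against 13.2, 11.1 and 13.5 for the libraries labelled shYAP, so that both perturbations lay wholly below their controls and the hairpin libraries lay at the level of clone1. Its effects were -4.85 ± 0.27 and -2.24 ± 0.38, and the effects differed by -2.60 ± 0.46 (edgeR adjusted p = 1.48e-04), the knockout fall being larger. Its controls also stood apart, all Scrambled libraries being above all shControl libraries (1.06 ± 0.29, adjusted p = 0.0415), and the fall was -3.19 in clone1 and -6.51 in clone2. Pla2g2a, a secreted phospholipase gene of the Paneth cell programme, is typed as a polymorphic pseudogene in the annotation used. It fell from 78.7, 75.6 and 69.3 to 3.32 to 8.15 and 1.02 to 5.47 CPM in the clones, and from 25 to 85.4 to 11.3, 14.5 and 14.6 CPM in the hairpin libraries. Its effects of -4.03 ± 0.24 and -1.77 ± 0.34 differed as well (-2.26 ± 0.41, edgeR adjusted p = 1.42e-04). Lgr5 (ENSMUSG00000020140, chr10:115450311-115587780, minus strand), the R-spondin receptor of crypt-base stem cells, stood at 25.2, 18.7 and 25.4 CPM in Scrambled, 5.06 to 18.8 (median 9.56) in clone1, 0.409 to 2.14 (median 0.883) in clone2, 3.93 to 14.5 (median 6.97) in shControl and 1.92, 1.66 and 2.65 in the libraries labelled shYAP. Clone2 and the hairpin libraries lay below all controls, whereas clone1 reached the lowest Scrambled library and lay at shControl's level. The effects of -2.66 ± 0.28 and -1.83 ± 0.42 did not differ past the threshold (-0.83 ± 0.53, edgeR adjusted p = 0.284, 95% confidence interval from -1.89 to 0.23), and Scrambled was above shControl (1.63 ± 0.30).

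Adh1, a retinol and alcohol dehydrogenase, fell in both (-2.56 ± 0.32 and -2.58 ± 0.50, with a difference of 0.02 ± 0.56). These are means over unlike libraries. The fall was -1.32 in clone1 (3.32 to 11 CPM) and -3.79 in clone2 (0.438 to 2.05 CPM), and over the 21 alternatives the hairpin value ran from -3.53 to -1.48. It stood at 25.5, 17.8 and 15.6 CPM in Scrambled and 1.68, 1.9 and 2.21 in the libraries labelled shYAP, below every shControl library. Cth, the cystathionine gamma-lyase of cysteine synthesis, had effects of -2.23 ± 0.21 and -1.42 ± 0.29, and its hairpin call was lost against shControl replicates 5 to 7. Ugt2b34, a glucuronosyltransferase gene, fell in the libraries labelled shYAP (-3.17 ± 0.39) and in clone2 (-4.17) but rose in clone1 (1.08), so its place among genes lower in both rests on clone2. The knockout call was also lost with the library sets as a random block. Genes of the Ugt2b family share sequence, which makes their assignment uncertain.

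Among genes higher in both, keratin, lipid carrier and signalling genes were named. Krt31 (ENSMUSG00000048981, chr11:100046646-100050551, minus strand), a hair-type keratin, stood at 0.694, 0.928 and 0.813 CPM in Scrambled, 4.91 to 12.2 in clone1 and 8.49 to 20.3 in clone2. It stood at 0.491 to 8.78 (median 3.45) CPM in shControl, against 17.3, 15.4 and 16.6 for the libraries labelled shYAP. Both perturbed sets lay above their controls, with effects of 3.78 ± 0.58 and 1.96 ± 0.38 that passed in all 21 alternatives, and Scrambled was below shControl (-2.31 ± 0.61). Keratin paralogs share sequence, so their read assignment is uncertain. Fabp4, a fatty acid carrier, rose from 5.09, 5.88 and 2.44 to 33 to 92.4 and 34.5 to 78.9 CPM in the clones and from 9.31 to 36.1 to 51.5, 59 and 44.6 in the hairpin libraries. The rise was larger in the knockout (2.31 ± 0.57, edgeR adjusted p = 0.00466), and its hairpin call was lost with shControl replicates 5 to 7 as the control. Bcl2l15, a BCL2 relative, had effects of 1.78 ± 0.38 and 2.21 ± 0.34, Dkk2, a secreted Wnt modulator, of 1.45 ± 0.33 and 1.43 ± 0.28, and Prkg2, the membrane-bound cGMP-dependent kinase, of 1.35 ± 0.29 and 1.19 ± 0.26. For Dkk2 and Prkg2 the clone1 values alone (0.79 and 0.42) did not pass. Prr9, a cornified-envelope type gene, stood at 646, 524 and 499 CPM in the libraries labelled shYAP and 24.6 to 393 in shControl, and its knockout call (2.45 ± 0.70) was lost with clone1 alone and without any 1 Scrambled library and its hairpin call (1.89 ± 0.54) without shYAP replicate 1 or 2.

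**Figure D2:**
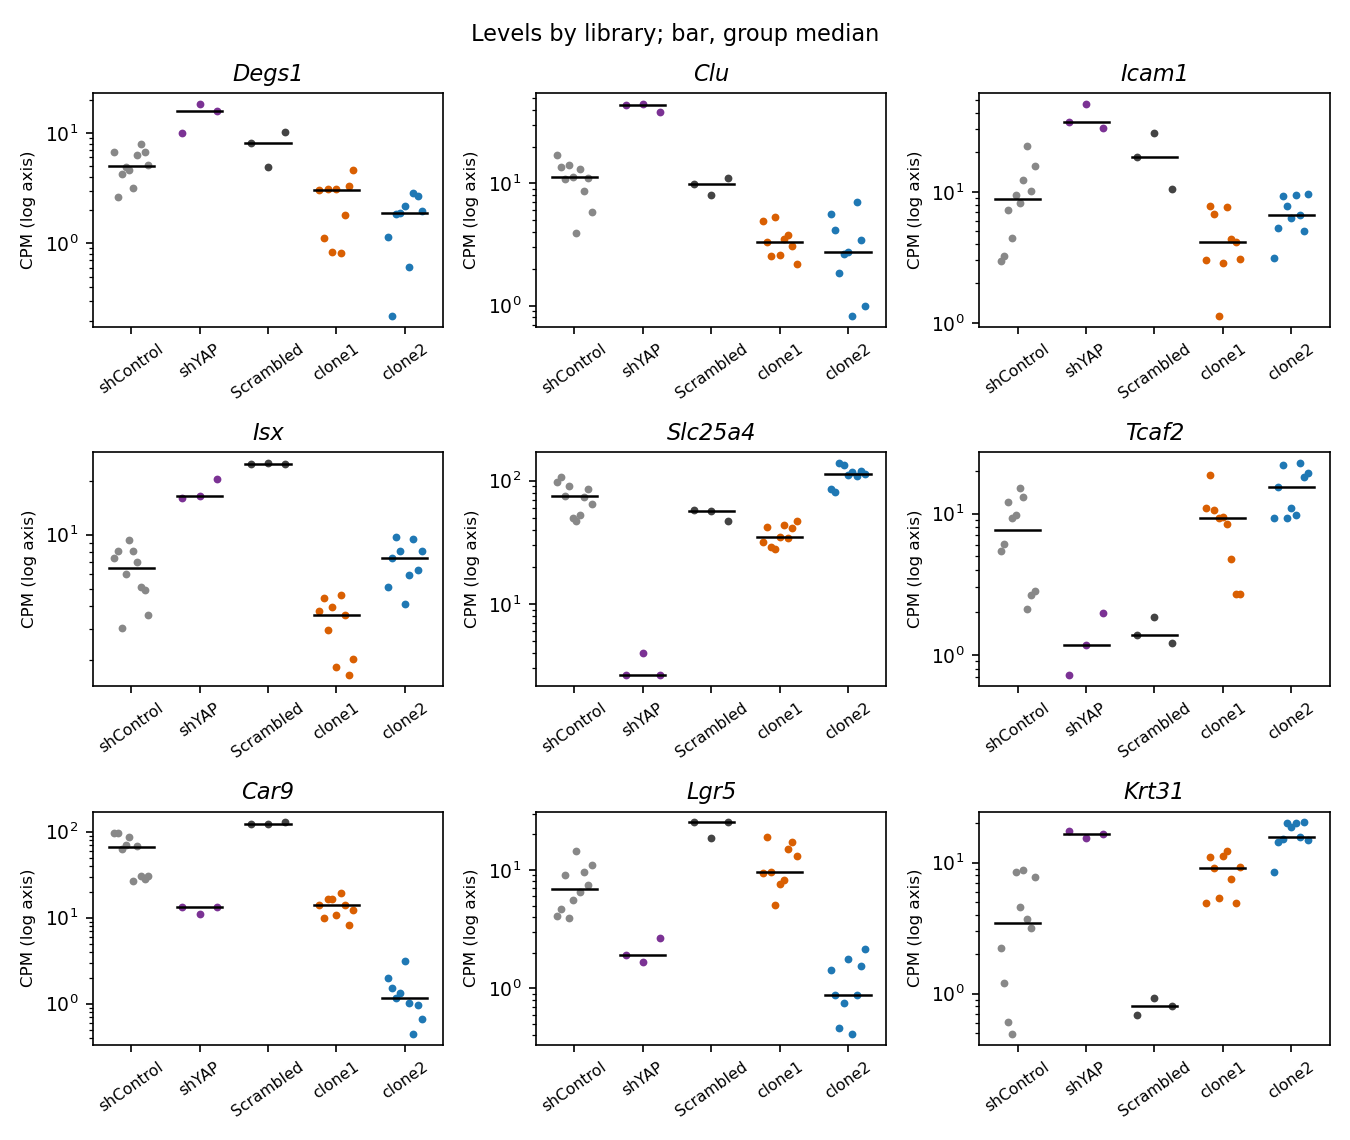
Level of 9 genes in CPM on log axes, 1 point per library, by group, with a bar at the group median. Degs1, Clu and Icam1 are lower in both clones than in Scrambled and higher in the libraries labelled shYAP than in shControl, Car9 is lower in both perturbations, Krt31 is higher in both, and for Isx, Tcaf2, Lgr5, Car9 and Krt31 the controls differ.

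The contrast was then read by gene group, beginning with protein folding. Of 20 endoplasmic reticulum chaperones and folding factors, 8 were lower and 0 higher in the knockout (background 7.55% lower, 6.48% higher), while 10 were higher and 1 lower in the libraries labelled shYAP (background 8.39% higher, 8.87% lower). For 11 the knockout effect was below the hairpin effect and for 0 above it (background 9% and 9.84%). The same background shares, taken over all genes tested, hold for every list below. The list's median difference was -0.94, against 0.08 over all genes tested, and its medians were -0.36 in the knockout and 0.59 in the hairpin libraries, against 0.00 and -0.06. Those that moved opposite ways were Hspa5, Calr, Pdia6, Sdf2l1, Manf and Creld2. Hspa5 (ENSMUSG00000026864, chr2:34771970-34777547, plus strand), the main chaperone of the endoplasmic reticulum and sensor of its stress, stood at 621, 683 and 681 CPM in Scrambled, 286 to 526.4 in clone1 and 254 to 355 in clone2. Its level was 388 to 1086 (median 589) CPM in shControl, against 1219.9, 1119 and 1081 for the libraries labelled shYAP, where the lowest hairpin library overlapped the highest control library. Its effects were -0.93 ± 0.16 and 0.93 ± 0.18, and both passed in all 21 alternatives. Creld2, a folding factor induced by misfolded protein, had 40.5, 42.2 and 31.7 CPM in Scrambled and 127, 96 and 93.2 in the libraries labelled shYAP, and a difference of -2.59 ± 0.32 (edgeR adjusted p = 1.73e-07), with its knockout call (-0.86 ± 0.22) lost without Scrambled replicate 2. Manf, a secreted stress-induced factor, had effects of -0.77 ± 0.21 and 1.24 ± 0.22, and the lectin chaperone Calr of -0.43 ± 0.14 and 0.99 ± 0.14. Their knockout calls were lost without Scrambled replicate 2 or 3, and that of Calr without replicate 1 as well. Creld2 and Calr did not pass in clone1 alone (-0.69 and -0.27), nor did Xbp1 (-0.32). Xbp1, the transcription factor of this response, was lower in both (-0.46 ± 0.13 and -0.43 ± 0.15). The number lower in the knockout was 3 to 5 without any 1 Scrambled library, 2 with clone1 alone and 1 with library sets as random blocks, whereas 9 to 11 were higher in the hairpin libraries and 10 to 12 had a lower knockout effect in all 21 alternatives.

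Sequences near the starts of these genes are shown because a motif known for this response was in a larger share of the chaperones than of all genes. The ER stress response element was searched as CCAAT and CCACG with 9 bases of any kind between them, on both strands, in the 300 bases around each RefSeq start (250 before to 50 after, build GRCm38.p6). It was found for 8 of the 18 chaperones matched in the RefSeq table, 44.4%, and for 37 of 27025 genes in all, 0.137%. Of the 6 genes that moved opposite ways, 5 were matched and 4 held it. Below, capitals mark the element. For Hspa5, Calr and Pdia6 the site alone with its nearest bases is given, and for Creld2 the 180 bases before the start.
Hspa5 (chr2:34772020-34772048, plus strand): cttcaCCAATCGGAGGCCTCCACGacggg
Calr (chr8:84847070-84847098, minus strand): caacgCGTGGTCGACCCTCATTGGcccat
Pdia6 (chr12:17266486-17266514, plus strand): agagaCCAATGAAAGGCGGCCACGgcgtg
Creld2 (chr15:88819466-88819645, plus strand): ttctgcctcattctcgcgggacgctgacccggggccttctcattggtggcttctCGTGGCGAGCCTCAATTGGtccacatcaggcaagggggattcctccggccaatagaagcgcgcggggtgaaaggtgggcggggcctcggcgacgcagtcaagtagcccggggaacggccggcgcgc
In Hspa5 and Pdia6 the element reads in the direction of the gene, and in Calr and Creld2 on the other strand. The element contains a CCAAT box, which alone was in 41.1% of all genes' windows. A match is a description of the letters and not a measured site.

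Cytosolic and mitochondrial heat shock genes had a like contrast. Of 16, 10 were higher and 0 lower in the libraries labelled shYAP, 3 were lower and 1 higher in the knockout, and 9 had a lower and 1 a higher knockout effect. The median difference was -1.01. The mitochondrial chaperonins Hspd1 and Hspe1 and the cytosolic chaperonin subunit Cct2 moved opposite ways. Hspd1 stood at 835, 770.1 and 898 CPM in Scrambled, 434 to 757 in clone1 and 240.3 to 352 in clone2, against 414 to 929 (median 852) in shControl and 1062, 1138 and 1057 in the libraries labelled shYAP. The clones lay below Scrambled and the hairpin libraries above shControl, with effects of -1.08 ± 0.18 and 0.59 ± 0.20, but the hairpin call was lost without any 1 shYAP library. The abundant chaperone Hspa8 rose in the hairpin libraries (0.98 ± 0.13) with a knockout value of 0.02 ± 0.13, and the small heat shock gene Hspb1 rose by 3.07 ± 0.37, from 9.81 to 65.7 CPM to 162, 215 and 244, with a knockout value of -0.04 ± 0.49. The 10 genes higher in the hairpin libraries became 6 without shYAP replicate 1 or 2, 7 without replicate 3 and 6 with library sets as random blocks.

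Sterol genes went the opposite direction. Of 24 genes of cholesterol synthesis and uptake, which SREBP2 activates when membrane sterol is low, 17 were lower and 1 higher in the libraries labelled shYAP, 6 were higher and 1 lower in the knockout, and 14 had a higher and 0 a lower knockout effect. The median difference was 0.66, with medians of 0.13 in the knockout and -0.63 in the hairpin libraries. Hmgcs1, Sqle, Cyp51, Msmo1, Sc5d and Insig1 moved opposite ways. Sqle, the squalene epoxidase, stood at 81.2, 88.2 and 99 CPM in Scrambled, 100.4 to 135 in clone1 and 121 to 214 in clone2, all clone libraries being above Scrambled. It stood at 71.8 to 127 (median 101) CPM in shControl, against 65.2, 53.6 and 58.8 for the libraries labelled shYAP, all below the controls, and its effects were 0.66 ± 0.15 and -0.79 ± 0.16, with 0.42 in clone1 alone, which did not pass, and 0.91 in clone2. Insig1, the sterol-sensing anchor of SREBP, had a difference of 2.04 ± 0.29 (edgeR adjusted p = 1.22e-06), with 25.4, 20.9 and 24.3 CPM in the hairpin libraries and 46.2 to 77.7 in shControl. The lanosterol enzymes Cyp51 and Lss had hairpin effects of -1.09 ± 0.17 and -1.30 ± 0.18 and knockout values of 0.52 ± 0.15 and 0.17 ± 0.15. Srebf2, which encodes SREBP2, was higher in the hairpin libraries (0.59 ± 0.15). The 6 genes higher in the knockout became 1 without any 1 Scrambled library. On the hairpin side 13 to 19 genes were lower over the 21 alternatives, and 11 to 16 had a higher knockout effect.

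Fatty acid synthesis and desaturation resembled the sterol genes on the hairpin side, with 8 of 19 lower and 1 higher (background 8.87% and 8.39%). In the knockout 2 were lower and 0 higher, near the background of 7.55% and 6.48%. Of the 19, 3 had a higher and 1 a lower knockout effect. The hairpin count was 4 to 10 over the 21 alternatives, and the knockout count was 0 without any 1 Scrambled library.

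Hypoxia and glycolysis genes were mostly lower in the hairpin libraries. Of 22, 15 were lower and 0 higher in the libraries labelled shYAP, 4 were lower and 1 higher in the knockout, and 12 had a higher and 1 a lower knockout effect, with a median difference of 0.58. Car9, Pfkp, Ndrg1 and Ero1a fell in both. Bnip3, a mitophagy receptor, moved opposite ways (0.97 ± 0.14 and -0.68 ± 0.14), its rise being that of clone2 (1.64, against 0.30 in clone1). The regulatory glycolytic enzyme Pfkfb3 (-1.18 ± 0.23), the angiogenic factor Vegfa (-1.46 ± 0.27) and Ankrd37 (-1.30 ± 0.17) fell in the hairpin libraries, with knockout values of 0.37 ± 0.20, 0.09 ± 0.23 and -0.13 ± 0.14. With shControl replicates 8 to 10 as the control, 5 genes of the list were lower in the hairpin libraries and 5 had a higher knockout effect, and without any 1 shYAP library 9 to 12 were lower.

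Genes of G2 and mitosis that passed the test were all lower, in either effect. Of 24, 16 were lower and 0 higher in the knockout, 10 were lower and 0 higher in the libraries labelled shYAP, and the effects differed for 1 gene, the mitotic kinase gene Plk1 (-0.94 ± 0.30, edgeR adjusted p = 0.0226). The median difference was -0.09, with medians of -0.61 and -0.51 in the 2 effects. Lower in both were Ccnb2, Aurkb, Bub1b, Cenpf, Kif23, Top2a and Tpx2. Ccnb2, a cyclin of the mitotic kinase, stood at 70.1, 76.8 and 88.5 CPM in Scrambled, 25.1 to 54.9 in clone1 and 31.5 to 45.6 in clone2, and at 44.3 to 67.1 (median 49.1) in shControl and 24.5, 26.1 and 28.2 in the libraries labelled shYAP. Neither perturbed set overlapped its control, and the effects were -0.98 ± 0.14 and -0.97 ± 0.17. Top2a, the topoisomerase of dividing cells, had effects of -0.71 ± 0.13 and -0.72 ± 0.16, the knockout value being mainly that of clone2 (-1.16, against -0.26 in clone1). The knockout count was 4 with clone1 alone and 22 with clone2 alone, and the hairpin count was 2 with shControl replicates 5 to 7 as the control, against 7 to 12 in the other alternatives. Ccnb2 was also higher in Scrambled than in shControl (0.61 ± 0.15). Genes of S phase differed between the effects in another way, with 10 of 24 lower and 1 higher in the knockout and 0 in either direction in the hairpin libraries. Of these 24, 4 had a lower and 1 a higher knockout effect. The 10 lower in the knockout became 5 to 7 without any 1 Scrambled library, 1 with clone1 alone and 21 with clone2 alone, and the hairpin count was 5 higher and 2 lower with shControl replicates 1 to 4 and 0 higher and 5 lower with replicates 8 to 10.

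The windows of the mitosis genes are shown because those that fell in both share the cell cycle homology region, searched as TTTGAA and its reverse complement TTCAAA in the same 300 bases. It was in 14 of 19 matched genes of the list, 73.7%, and in 5466 of 27025 genes in all, 20.2%. Of the 7 genes lower in both, 5 were matched and all 5 held it. Capitals mark it in the 180 bases before the start of Ccnb2 and Top2a.
Ccnb2 (chr9:70421555-70421734, minus strand): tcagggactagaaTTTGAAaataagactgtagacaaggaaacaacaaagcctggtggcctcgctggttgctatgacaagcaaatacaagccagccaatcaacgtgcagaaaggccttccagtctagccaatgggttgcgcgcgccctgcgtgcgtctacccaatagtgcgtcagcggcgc
Top2a (chr11:99024190-99024369, minus strand): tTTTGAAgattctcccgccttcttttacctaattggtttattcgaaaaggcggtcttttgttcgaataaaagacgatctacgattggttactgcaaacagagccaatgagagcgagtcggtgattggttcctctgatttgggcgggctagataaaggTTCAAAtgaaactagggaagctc
Both stretches also hold CCAAT boxes or their reverse complement ATTGG, left in lower case. Over all 122 genes lower in both, 91 were matched and 25 held TTTGAA, 27.5%. These letters are short and not particular to mitosis genes. They were in 5 of 6 matched hair-type keratins, 83.3%, and in 2 of 19 matched S phase genes, 10.5%. A match is a description of the letters and not a measured site.

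**Figure D3:**
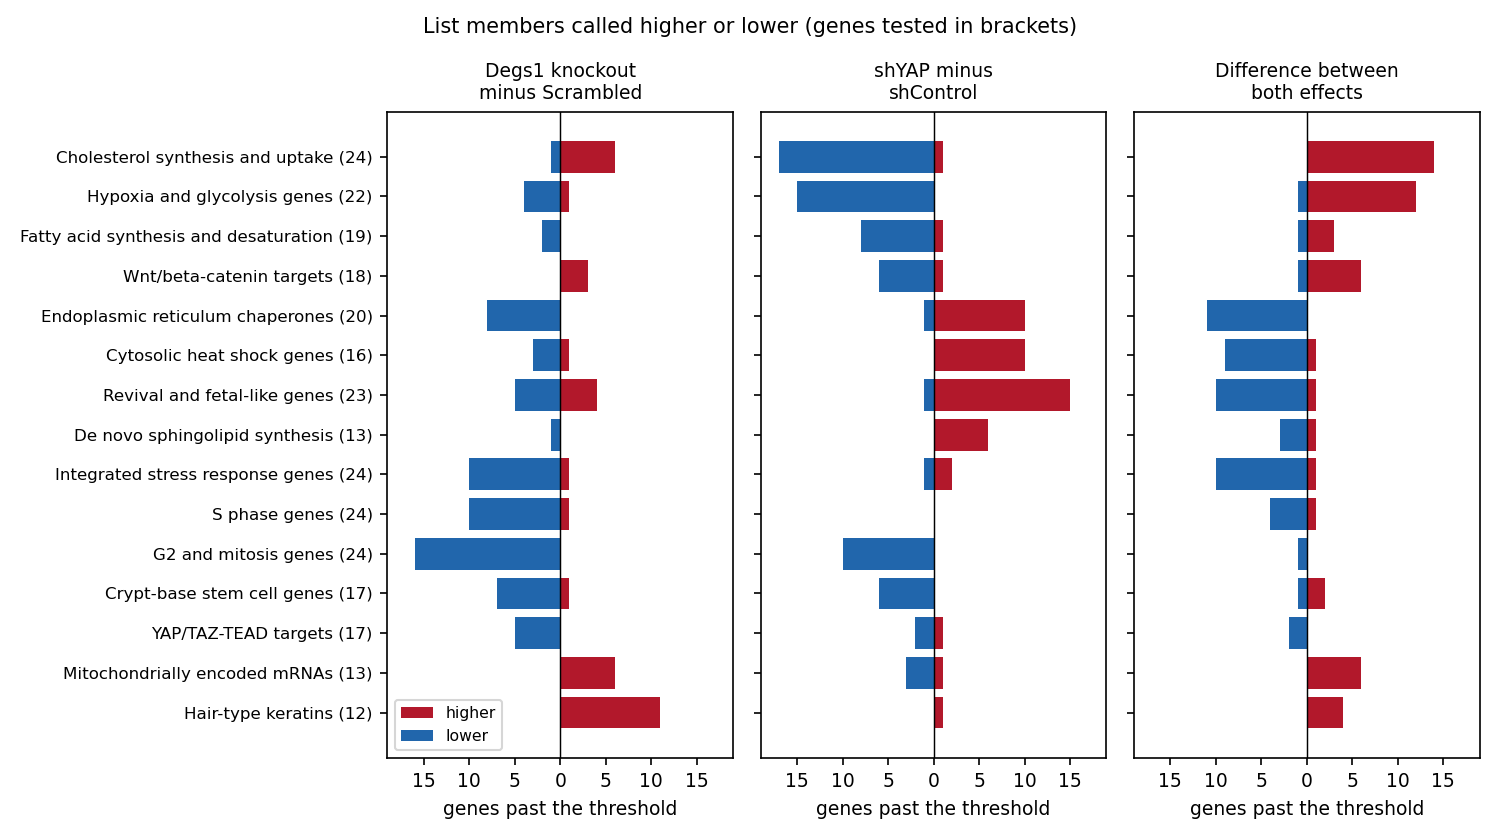
Number of genes past the threshold in 15 of the 35 lists, higher to the right and lower to the left, in the knockout, in the libraries labelled shYAP and in the difference between both; the number of genes tested is in brackets. Cholesterol genes and chaperones point in opposite directions in the first and second panels, whereas G2 and mitosis genes are lower in both.

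**Figure D4:**
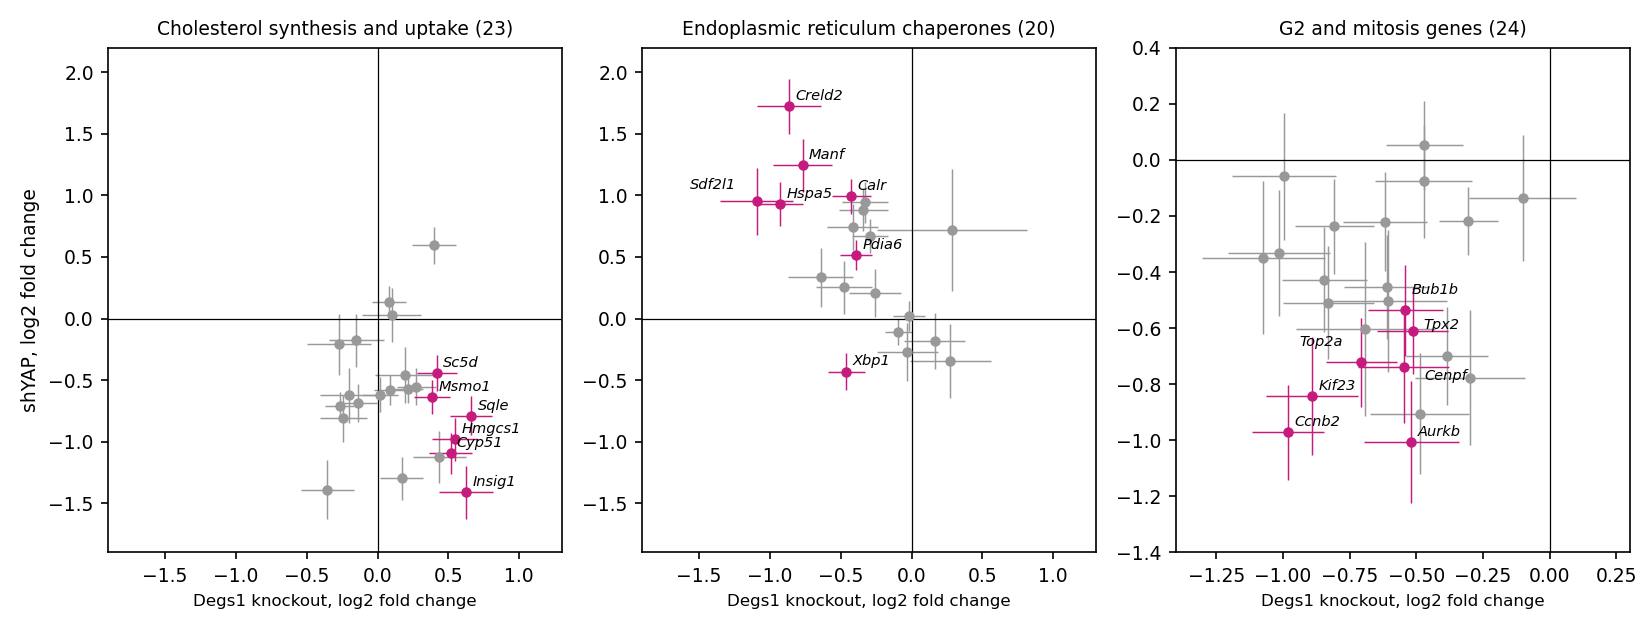
Log2 fold change in the knockout (x axis) and in the libraries labelled shYAP (y axis) for each tested gene of 3 lists, with standard errors; coloured and named genes passed the threshold in both effects, the sterol panel shows 23 of the 24 genes tested, and the third panel has narrower axes. The 6 named chaperones other than Xbp1 lie in the upper left, 6 sterol genes in the lower right, and 7 mitosis genes in the lower left.

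Revival and fetal-like genes of the injured epithelium were mostly higher in the libraries labelled shYAP, with 15 of 23 higher and 1 lower. In the knockout 4 were higher and 5 lower, and 10 had a lower and 1 a higher knockout effect, with a median difference of -0.50. Beside Clu, the annexin Anxa2 (-0.45 ± 0.10 and 0.53 ± 0.11) and the secreted phosphoprotein Spp1 (-1.06 ± 0.18 and 1.05 ± 0.20) fell in the knockout and rose in the hairpin libraries. The fall was that of clone2 (-0.69 and -1.94), and the clone1 values (-0.21 and -0.17) did not pass. For Spp1, clone1 at 23.3 to 50.9 CPM overlapped Scrambled at 36.4 to 46.9, with clone2 at 6.57 to 13.5. Both were above shControl in Scrambled (0.59 ± 0.11 and 1.16 ± 0.20). Ly6c1 and Tnfrsf12a rose in both, and Krt23 rose in the knockout and fell in the hairpin libraries. Ly6a, which encodes the fetal-like surface marker Sca1, stood at 4090.3, 4132 and 3388 CPM in the libraries labelled shYAP, above every shControl library (1502 to 2631), a rise of 0.94 ± 0.14 (edgeR adjusted p = 4.81e-06). Its clones overlapped Scrambled (0.31 ± 0.14, adjusted p = 0.146), and the effects differed by -0.63 ± 0.20 (edgeR adjusted p = 0.0207). Anxa1 rose in the hairpin libraries (0.73 ± 0.17, adjusted p = 0.00301) and had a like knockout value (0.51 ± 0.18, adjusted p = 0.0505), with no difference past the threshold (-0.22 ± 0.25). The EGFR ligand Areg rose in the hairpin libraries (1.41 ± 0.34), and its effects differed by -2.42 ± 0.49 (edgeR adjusted p = 7.76e-04), from 0.05 in clone1 and -2.07 in clone2. The 4 genes higher in the knockout became 0 to 2 without any 1 Scrambled library.

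Crypt-base stem cell genes included several that were lower in both. Of 17, 7 were lower and 1 higher in the knockout, 6 were lower and 0 higher in the libraries labelled shYAP, and 2 had a higher and 1 a lower knockout effect. Lgr5, the matrix gene Smoc2 (-1.58 ± 0.49 and -4.61 ± 1.02) and the ErbB inhibitor Lrig1 (-1.41 ± 0.26 and -1.76 ± 0.37) fell in both, Smoc2 not in clone1 alone (-1.33). Lgr5 fell by 1.03 in clone1 and 4.28 in clone2. Sox9, a crypt transcription factor, moved opposite ways (0.84 ± 0.21 and -0.84 ± 0.22), with Scrambled below shControl (-0.85 ± 0.22). Of the 17 genes, 5 differed between the controls, and 4 or 5 were lower in the knockout without any 1 Scrambled library. Wnt/beta-catenin targets had 3 of 18 higher and 0 lower in the knockout, 1 higher and 6 lower in the hairpin libraries, and 6 with a higher and 1 with a lower knockout effect. Lef1 (0.88 ± 0.28 and -1.37 ± 0.30) and the Wnt inhibitor Apcdd1 (1.85 ± 0.41 and -1.26 ± 0.40) moved opposite ways, with the rise in clone2 (1.39 and 3.45, against 0.37 and 0.26 in clone1). Scrambled was below shControl for both (-1.38 ± 0.30 and -2.11 ± 0.42), and 6 of the 18 genes differed between the controls. The knockout call of Lef1 was lost without Scrambled replicate 1 or 2, the hairpin call of Apcdd1 without any 1 shYAP library, and that of Sox9 without shYAP replicate 2.

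Genes of sphingolipid metabolism were examined because Degs1 is part of it. Of 13 genes of de novo synthesis, 6 were higher and 0 lower in the libraries labelled shYAP, and Degs1 was the 1 gene lower in the knockout, with 0 higher. Besides Degs1, Sptlc1 (0.73 ± 0.20) and Sptssa (0.41 ± 0.12), subunits of the serine palmitoyltransferase that starts the pathway, Cers2 (0.44 ± 0.14), the ceramide synthase of very long acyl chains, the desaturase and hydroxylase Degs2 (0.45 ± 0.13) and the regulator Ormdl2 (0.35 ± 0.12) rose in the hairpin libraries. The count of 6 ranged from 0 to 6 over the 21 alternatives. The effects differed for 4 of the 13, lower for Degs1, Sptlc1 and Sptssa and higher for Cers6 (0.79 ± 0.28). Degs2 in the knockout had a value of 0.18 ± 0.12 (adjusted p = 0.361), from 0.61 in clone1 and -0.24 in clone2. Of 20 genes that use or break down ceramide, 3 were lower and 1 higher in the knockout (background 7.55% lower, 6.48% higher), 2 were lower and 1 higher in the hairpin libraries (background 8.87% and 8.39%), and 3 had a higher and 2 a lower knockout effect. Without any 1 Scrambled library 0 or 1 was lower and 0 or 1 higher in the knockout. Ugcg, the glucosylceramide synthase, stood at 11.7, 7.58 and 6.63 CPM in the libraries labelled shYAP, all below shControl at 19.4 to 38.7, and at 25, 22.1 and 17.3 in Scrambled, 15.5 to 28.7 in clone1 and 11.6 to 29.5 in clone2. It fell in the hairpin libraries (-1.83 ± 0.26, edgeR adjusted p = 1.43e-06) with a knockout value of 0.05 ± 0.21, a difference of 1.88 ± 0.33 (edgeR adjusted p = 5.84e-05). Ceramide kinase Cerk had a hairpin effect of -1.22 ± 0.39, and the sphingomyelin synthase Sgms1 a knockout effect of -0.62 ± 0.17, from -1.06 in clone2 and -0.17 in clone1, which did not pass.

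Some YAP/TAZ-TEAD targets were lower in the knockout. Of 17 tested of 23, 5 were lower and 0 higher in the knockout (background 7.55% and 6.48%), 1 was higher and 2 lower in the libraries labelled shYAP (background 8.39% and 8.87%), and the effects differed for 2, both with a lower knockout effect. The 5 lower became 2 without Scrambled replicate 2, and there were 2 lower and 1 higher with clone1 alone against 7 lower and 0 higher with clone2 alone. Ccn1, a matricellular gene and classical YAP target, stood at 8.63, 8.06 and 6.63 CPM in the libraries labelled shYAP and 7.8 to 22.5 (median 15.5) in shControl, with overlap. Scrambled was at 10.4, 11.3 and 6.1 CPM and the clones at 2.88 to 7.72 and 1.99 to 6.55. Its effects were nearly equal (-0.92 ± 0.28, adjusted p = 0.0183, and -0.91 ± 0.32, adjusted p = 0.0372), and the hairpin call was lost without any 1 shYAP library. The knockout call was lost without Scrambled replicate 1 or 2 and with clone1 alone. The coagulation initiator F3 fell in both (-1.75 ± 0.23 and -0.98 ± 0.30), in the hairpin libraries not without shYAP replicate 2 or 3 and in the knockout mainly in clone2 (-2.84, against -0.65 in clone1). Ccn2, the second matricellular target, fell in the knockout (-1.60 ± 0.24), mainly in clone2 (-2.70, against -0.49 in clone1), and had a hairpin value of 0.43 ± 0.27 (adjusted p = 0.286), so that the effects differed by -2.03 ± 0.36 (edgeR adjusted p = 6.24e-05). Myof, a membrane-repair gene, moved opposite ways (-0.57 ± 0.15 and 0.50 ± 0.16), its fall being that of clone2 alone (-1.24, at 22.3 to 32 CPM). Clone1 stood at 51.3 to 114 CPM (0.10), around Scrambled at 59.7 to 68.2. For Myof the hairpin call was lost without any 1 shYAP library and the knockout call without Scrambled replicate 2. Of 20 Hippo pathway genes, 1 was lower and 0 higher in the knockout, and 1 higher and 3 lower in the hairpin libraries. In 1, Taok1 (0.85 ± 0.25), the knockout effect was higher, against a background of 9.84%. The other background shares are those given for the targets above, and the counts are small. Tead2 fell in both (-1.06 ± 0.34 and -1.66 ± 0.46), in the knockout in clone1 (-1.67, against -0.45 in clone2).

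Some groups changed on the knockout side. For the integrated stress response, 10 of 24 genes fell and 1 rose in the knockout, 2 were higher and 1 lower in the hairpin libraries, and 10 had a lower and 1 a higher knockout effect (median difference -0.79). The cytokine Gdf15 fell in the knockout (-1.96 ± 0.22) with a hairpin value of -0.25 ± 0.26. Clone2 at 2.55 to 10.9 CPM carried most of it (-3.31), and clone1 at 25.1 to 48.8, against 49.3 to 57.4 in Scrambled, did not pass alone (-0.61). The amino acid transporter subunit Slc3a2 had values of -1.04 ± 0.13 and 0.30 ± 0.15. The cystine carrier Slc7a11 rose in the hairpin libraries (0.97 ± 0.14) with a knockout value of -0.07 ± 0.14. With clone1 alone, 7 genes were lower in the knockout and 3 had a lower knockout effect. Mitochondrially encoded mRNAs rose for 6 of 13 and fell for 0 in the knockout, rose for 1 and fell for 3 in the hairpin libraries, and had a higher knockout effect for 6. The knockout count was 3 without any 1 Scrambled library. Of 12 hair-type keratins tested, 11 were higher in the knockout and 1, Krt31, in the hairpin libraries, and 4 had a higher knockout effect. The 11 higher in the knockout became 7 or 8 without any 1 Scrambled library, and 10 were higher in the hairpin libraries with shControl replicates 1 to 4 as the control.

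Single genes of other lists moved opposite ways as well. Cldn2, the pore-forming claudin of crypts, stood at 18.3, 18.1 and 20.1 CPM in Scrambled, 0.935 to 3.94 (median 2.21) in clone1 and 0.205 to 2.32 (median 0.59) in clone2, against 1.51 to 5.6 (median 3.73) in shControl and 8.15, 9.95 and 7.95 in the libraries labelled shYAP. Its effects were -3.75 ± 0.31 and 1.23 ± 0.37, with a difference of -4.98 ± 0.48 (edgeR adjusted p = 1.33e-10). Scrambled stood above shControl (2.34 ± 0.34), and the hairpin call was lost without shYAP replicate 1 or 2 and with shControl replicates 1 to 4 or 8 to 10. The AP-1 subunit Fosl1 had effects of -1.41 ± 0.38 and 1.64 ± 0.39, and the basal keratin Krt14 of -1.77 ± 0.43 (-0.75 in clone1, -2.80 in clone2) and 1.27 ± 0.43. The MAP kinase phosphatase Dusp5 went the other way (1.17 ± 0.32 and -1.01 ± 0.34), as did the mitochondrial oxidase mRNA mt-Co1 (0.95 ± 0.28 and -1.15 ± 0.30, with 0.42 in clone1 and 1.49 in clone2). Without Scrambled replicate 1 the knockout calls of Fosl1, Dusp5 and mt-Co1 were lost, those of Fosl1 and mt-Co1 also without replicate 2 and those of Dusp5 and mt-Co1 without replicate 3. The hairpin calls of Krt14 and Dusp5 were lost without shYAP replicate 1 or 2, and those of Dusp5 and mt-Co1 without replicate 3. Of 7 goblet cell genes tested, 2 were lower in each effect and 0 differed between the effects, and Klk1, a kallikrein, fell in both (-2.10 ± 0.36 and -3.03 ± 0.61). Of 6 Paneth and deep crypt secretory genes, 2 were lower in the knockout and 4 in the hairpin libraries, and 4 differed between the effects, 2 in each direction. The background was 7.55% lower in the knockout and 8.87% lower in the hairpin libraries, and both lists are short. Of 10 absorptive colonocyte genes, 0 passed in the hairpin libraries and 1 rose and 1 fell in the knockout. This mean hid clones that went apart, with 5 higher and 0 lower in clone1 and 1 higher and 5 lower in clone2. The mucin Muc13 rose in clone1 (1.64) and fell in clone2 (-2.52), as did the differentiation keratin Krt20 (1.95 and -1.76).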

How the data were processed

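The authors deposited expected counts per gene, estimated with Salmon 1.3.0 on mm10 per the submitters' processing notes, from poly(A) libraries that keep strand per the labels' protocols. The deposited values covered 54354 genes, 29742 of them at 0 in every library. Rows without a gene name, 1243 in number and at most 0.0475% of a library's counts, were kept under their gene IDs. They were left out only from the genes named by rule. The estimates were rounded to whole counts.

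All 34 libraries entered 1 model with a mean per group. edgeR 4.0.16 in R 4.3.3 was used with TMM scaling, filterByExpr (minimum count 10, minimum total 15) and robust quasi-likelihood tests. Benjamini-Hochberg adjustment ran over all 11960 genes left, with a threshold of 0.05. The main quantity was the mean of both clones minus Scrambled, minus the libraries labelled shYAP over shControl. A positive value means that the knockout effect was higher. Fold changes are log2 values ± the standard error. CPM values use the effective library totals, so precision is lowest in the shallowest library (883253 counts).

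The members and the 35 lists were chosen with earlier results of these data known. Genes named by rule were Degs1, Yap1, Clu, Anxa1, Ly6a, Lgr5, Ccn1, Ccn2 and Car9, the 6 highest and 6 lowest differences, the 6 genes of each shared direction with the largest smaller effect (mean log2 CPM of at least 3), and up to 4 members per list by lowest p (mean log2 CPM of at least 1). Other list members were named after their values had been seen. Some list members are counted but not reported by name here. Positions are from GENCODE M21 (mm10), promoter windows from RefSeq (GRCm38.p6). A TEAD motif, GGAATG on either strand, was also searched. It was in 8 of 17 matched YAP/TAZ-TEAD targets, 47.1%, and in 16.6% of all genes. Among genes moved by both effects its share ran from 9.47% (knockout higher, shYAP lower) to 17.2% (the reverse). A sterol regulatory element, TCACNCCAC on either strand with N for any base, was searched as well. It was in 1 of 16 matched genes of cholesterol synthesis and uptake, 6.25%, and in 1.44% of all genes. Of the 6 sterol genes that moved opposite ways, 5 were matched and 1, Hmgcs1, held it.

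Alternatives were DESeq2 1.42.0 (scaling and Wald test), limma 3.58.1, no filter, a threshold of 0.01, a replicate block, library sets as a random block, single clones, library sets alone and each Scrambled and shYAP library left out. The fits were tested on simulated data before use, with independent libraries, 1 spread for all genes and changes placed in shYAP alone. Real libraries of the same set were correlated (0.24 in limma), so the shares below need not carry over to them. A true log2 difference of 1 was called for 10% of 50 genes when higher and 20% when lower. A difference of 2 was called for 78% and 100%, and 5.45% of the calls were unchanged genes. Genes that did not pass may thus still differ.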

Additional observations from a re-analysis of the deposited data

Results flagged for a closer look

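In 4 of 102 sets of libraries checked for 1 value far from the others, over 34 named genes, clone1 replicate 2 lay far above the other clone1 libraries. Chance alone flags about 1 in 20 sets. This library is the shallowest of the series, with 883253 counts, and held 4.43 CPM of Ociad2, 21 CPM of Bcl2l15, 46.5 CPM of Dkk2 and 45.4 CPM of Yaf2. With it left out, the knockout effects of all 4 genes still passed the threshold.

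The clones differed from each other by a test of clone2 minus clone1 (edgeR adjusted p under 0.05) for 23 of the 34 genes named by rule outside the lists, 67.6%, against 44.6% of all genes tested. For 3 of the 23 the clone values had opposite signs against Scrambled, but only for Ugt2b34 did each clone pass apart. Clone2 did not pass for Hoxb7 (edgeR adjusted p = 0.892), nor did clone1 for Slc25a4 (edgeR adjusted p = 0.053). The log2 difference was 1.62 for Slc25a4 (edgeR adjusted p = 3.10e-13), from -0.55 in clone1 and 1.07 in clone2. It was 4.88 for Hoxb7 (edgeR adjusted p = 1.23e-19), from -4.83 and 0.06, and -5.26 for Ugt2b34 (edgeR adjusted p = 1.90e-17), from 1.08 and -4.17. For these genes the mean of both clones describes neither line.

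For 18 genes both clones had the same sign and the value of clone2 was further from 0. Among genes with lower values in the knockout, the difference was -3.33 for Car9, -3.25 for Lgr5, -2.47 for Adh1, -2.31 for Car13, -2.21 for Ccn2, -1.91 for Cth, -1.32 for Mgat4c and -0.92 for Pla2g2a. Among genes with higher values it was 3.06 for Alms1, 2.32 for Smpx, 2.25 for Fstl3, 1.86 for Prkg2, 1.31 for Dkk2, 1.31 for Dlx3, 0.997 for Krt31, 0.94 for Tcaf2, 0.92 for Bcl2l15 and 0.82 for Btbd8. For Isx (1.22) and Yaf2 (1.25), both lower in the knockout, the value of clone1 was further from 0.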

How the results depend on the processing

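Of the alternative values of the 6 counts of genes, 88 lay within 1.5 times the reported count. The other 44, in the order difference, knockout, shYAP, same way, opposite ways and Scrambled minus shControl, were 781, 518, 765, 52, 52 and 67 when library sets were random blocks, and 1161, 904, 1026, 91, 96 and 145 at a threshold of 0.01. Leaving out any 1 Scrambled or shYAP library gave, with kept values included, 1586 to 1824, 877 to 1648, 1092 to 2034, 127 to 142, 131 to 181 and 102 to 344 in the same order. The counts of the difference in these ranges all lay within 1.5 times. The knockout count moved without a Scrambled library (877 to 1043), and the shYAP count without a shYAP library (1092 to 1253). With shControl replicates 1 to 4 alone 484 genes moved opposite ways and 1457 differed between the controls, and with replicates 5 to 7 the values were 461 and 793. Replicates 8 to 10 gave 1423 differences, 1205 shYAP genes and 153 opposite genes. Knockout replicates 7 to 9 gave 912, 134 and 172 for the knockout, same-way and opposite counts, and clone2 alone 3421, 353 and 496. The cause was not tested, beyond the fewer libraries or stricter threshold of each setting.

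Replicate numbers did not pair the libraries, with mean correlations of same-numbered deviations from -0.033 to 0.062. With the replicate number as a block there were 2142 differences, 1555 knockout genes, 2143 shYAP genes, 155 same-way, 352 opposite and 453 control genes. The difference of Adh1 turned to -1.77 under that block. With shControl replicates 1 to 4 alone the difference turned to -1.51 for Prr9, -1.77 for Pyy and -0.072 for Krt87, and with clone2 alone to -1.01 for Ugt2b34 and 0.19 for Decr1. Of the other values of named genes 2903 kept direction and call, 284 lost the call and 41 gained it. Of the values computed for the lists 586 were kept and 149 moved. Without a filter on low counts the median difference over all genes was 0.37 rather than 0.08, and with limma-trend it was 0.00. Depth limits low genes most, and the shallowest library held 883253 counts.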
